A study of Rattus norvegicus with 3 samples.

Results

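The genes described here are the BMP, GDF, TGF-beta, Wnt and FGF ligand genes of the rat basolateral amygdala (BLA), together with the Frizzled receptor genes and Wisp1. They were chosen by name alone: protein-coding genes whose symbol is Bmp, Gdf, Tgfb, Wnt, Fzd or Fgf followed by a number and at most 1 letter, plus Wisp1, with a mean above 1 over the 3 libraries. The rule gave 60 genes of the 16775 protein-coding genes above that mean and of 19113 genes listed in all. They comprised 11 Bmp, 6 Gdf, 3 Tgfb, 16 Wnt, 9 Fzd and 14 Fgf genes and Wisp1. Among names of this form, 62 were listed, and the other two were left out, Gdf7 because its mean was 0.677 (1 read in SH, 1 in EE and none in ER) and Fzd10 because the deposited table types it as a pseudogene. The lowest means that stayed in belonged to Gdf5, Gdf15 and Fgf23, with 2 to 7 reads per library. A name is not a function, and 2 of the Bmp names are not ligands: Bmp1 encodes a procollagen protease that also cleaves the BMP antagonist chordin, and Bmp2k an intracellular kinase.

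Adult male Sprague-Dawley rats were held in 1 of 3 ways, and each condition was sequenced as 1 library from the pooled RNA of 10 rats. SH rats (standard housing) lived in pairs. EE rats (environmental enrichment) shared a large cage of 10 rats with toys and shelters during their active cycle and were housed singly by day. ER rats (enrichment removal) had the same enrichment for 4 weeks, were then housed singly, and were collected 2 weeks after removal; per the study's methods, rats of this pooled cohort were naive to behavioral testing. The rats were 8 weeks old on arrival, and no label gives a genotype or a drug. The contrasts are 3: EEvSH for enrichment, ERvSH for enrichment followed by its loss, and ERvEE for the loss. Social housing differed in each of them and cannot be told apart from enrichment or its removal.

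BMPs, GDFs and TGF-betas are secreted dimers that bind pairs of serine/threonine kinase receptors and act through SMAD proteins, with Id genes among the best known BMP targets. Wnts are lipid-modified ligands that bind Frizzled receptors with the co-receptors Lrp5 and Lrp6, and in the canonical branch they stabilize beta-catenin and raise Axin2. Most FGFs bind receptor tyrosine kinases and induce feedback inhibitors of the Sprouty family, whereas Fgf11 to Fgf14 stay in the cell and bind voltage-gated sodium channels. In the adult brain these families are known for roles in synapse formation, glial maintenance, blood vessel signaling and neuronal excitability.

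Values are scaled counts, the reads of a gene times a factor of its library. Reads assigned to genes numbered 30334384 in SH, 29263063 in EE and 29558555 in ER, and 1 read was worth 0.996, 1.03 and 1.03 scaled counts. Each comparison is a ratio of scaled counts with an exact (Clopper-Pearson) 95% interval from the reads, which covers counting error only. There is 1 library per condition, so no difference has a replicate check, the variation between rats or pools is unknown, and no p-value is given. The size rule was met by genes that differed 1.5-fold or more, up or down, with 1 outside the interval. Scaled counts were not divided by transcript length, so levels are compared between libraries and never between genes. In tissue punches, fewer cells of a type and less RNA per cell cannot be told apart. The 6 glutamatergic markers of the BLA were present in all 3 libraries (Slc17a7 at 57756 to 58098). Not all were as even as Slc17a7. In EEvSH the interval lay above 1 for 4 and below it for 1, from Tbr1 (0.899, 0.845 to 0.956) to Satb1 (1.19, 1.12 to 1.27). In ERvEE it lay below 1 for 4 and above it for 0. Among all 16775 genes tested it lay above 1 for 1555 and below for 1499 in EEvSH, and for 1086 and 1091 in ERvEE. The 6 markers had means of 1857 to 57873, where small differences are separable, such as Lmo3 in ERvEE (0.961, 0.927 to 0.996).

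Bmp2 and Wisp1 showed the clearest differences of the 60 genes, in opposite directions: Bmp2 was lowest and Wisp1 highest in the SH library, and each was past the size rule in both EEvSH and ERvSH. Wnt16 was higher in EE than in SH, Fgf2 and Fgf5 were lower in ER than in SH, and Bmp15 was lower in ER than in either other library. These 6 genes were past the rule in at least 1 contrast and 54 were past it in none, which is 10 of every 100 members against 3.82 of every 100 among all genes tested. The interval excluded 1 in at least 1 contrast for 20 members and included it in all 3 for the remaining 40. Of the 6 genes, 3 (Fgf2, Fgf5 and Bmp15) had a mean under 50, and their small numbers of reads gave wide intervals.

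Promoter sequences are shown for Wnt16, Wnt2, Fgf2 and Fgf5. The first pair are Wnt ligands whose ratios to SH lay above 1, and the second pair are FGF ligands below 1 in ERvSH. Each is the 250 bases upstream of the gene start on the gene's own strand, 5′ to 3′, from RefSeq in build GRCr8. Capitals mark, on either strand, the letters TATAAA of the TATA box, the letters GGGCGG of the GC box, the letters TGACTCA of the site for AP-1 and the letters CCAAT of the box of that name.
Wnt16, chr4:51786478-51786727, plus strand: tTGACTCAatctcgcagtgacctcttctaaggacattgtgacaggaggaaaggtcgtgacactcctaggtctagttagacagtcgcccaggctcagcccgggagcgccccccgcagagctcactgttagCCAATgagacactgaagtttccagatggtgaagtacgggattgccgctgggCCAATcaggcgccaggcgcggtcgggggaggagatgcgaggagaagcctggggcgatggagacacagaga
Wnt2, chr4:47340285-47340534, minus strand: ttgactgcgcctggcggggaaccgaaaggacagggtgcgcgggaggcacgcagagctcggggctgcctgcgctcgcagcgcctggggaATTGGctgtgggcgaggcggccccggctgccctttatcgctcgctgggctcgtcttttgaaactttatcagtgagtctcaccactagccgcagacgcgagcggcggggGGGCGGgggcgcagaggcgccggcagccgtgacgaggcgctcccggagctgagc
Fgf2, chr2:122164204-122164453, plus strand: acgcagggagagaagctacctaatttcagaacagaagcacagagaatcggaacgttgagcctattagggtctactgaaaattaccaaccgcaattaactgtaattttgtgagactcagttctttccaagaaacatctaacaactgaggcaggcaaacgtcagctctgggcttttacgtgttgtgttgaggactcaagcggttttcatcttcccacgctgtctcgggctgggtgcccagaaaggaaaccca
Fgf5, chr14:11650244-11650493, minus strand: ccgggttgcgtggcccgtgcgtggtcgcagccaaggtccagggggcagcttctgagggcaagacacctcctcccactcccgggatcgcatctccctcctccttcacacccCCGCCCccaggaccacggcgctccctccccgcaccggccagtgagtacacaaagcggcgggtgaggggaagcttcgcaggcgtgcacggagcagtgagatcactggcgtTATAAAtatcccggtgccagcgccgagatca

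The 4 windows shared few of these letters. The Wnt16 window held TGACTCA once, 249 bases before the start, and CCAAT in 2 places, and it was the only member window with TGACTCA, which stood in 4.05% of 33469 windows of this length over all RefSeq genes. The Wnt2 window held GGGCGG, 54 bases before the start, and CCAAT on the reverse strand. In the Fgf5 window TATAAA lay 31 bases before the start and GGGCGG on the reverse strand. None of these letters was in the Fgf2 window. TATAAA was in 12.9% and CCAAT in 34% of all windows, close to the 9.62% and 36.5% of the 52 member windows. GGGCGG was in 30.5% of all windows and 51.9% of the member windows, and the median number of CpG dinucleotides was 5 over all and 16 over the members. The 33469 windows were not filtered by gene type or level, whereas the members are protein-coding genes with a mean above 1. These sets are therefore unlike, and whether the differences belong to these families was not tested. ATCAAAG, letters bound by the Wnt effectors TCF and LEF, was in 3.15% of all windows and in none of the 52. A match is a description of letters and not of a bound site. Windows were matched by symbol for 47 of the 60 genes; Bmp1, Bmp2, Bmp7, Gdf5, Gdf6, Wnt5b, Wnt7b, Wnt10b, Fzd2, Fzd3, Fzd6, Fgf23 and Wisp1 had no entry.

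**Figure D1:**
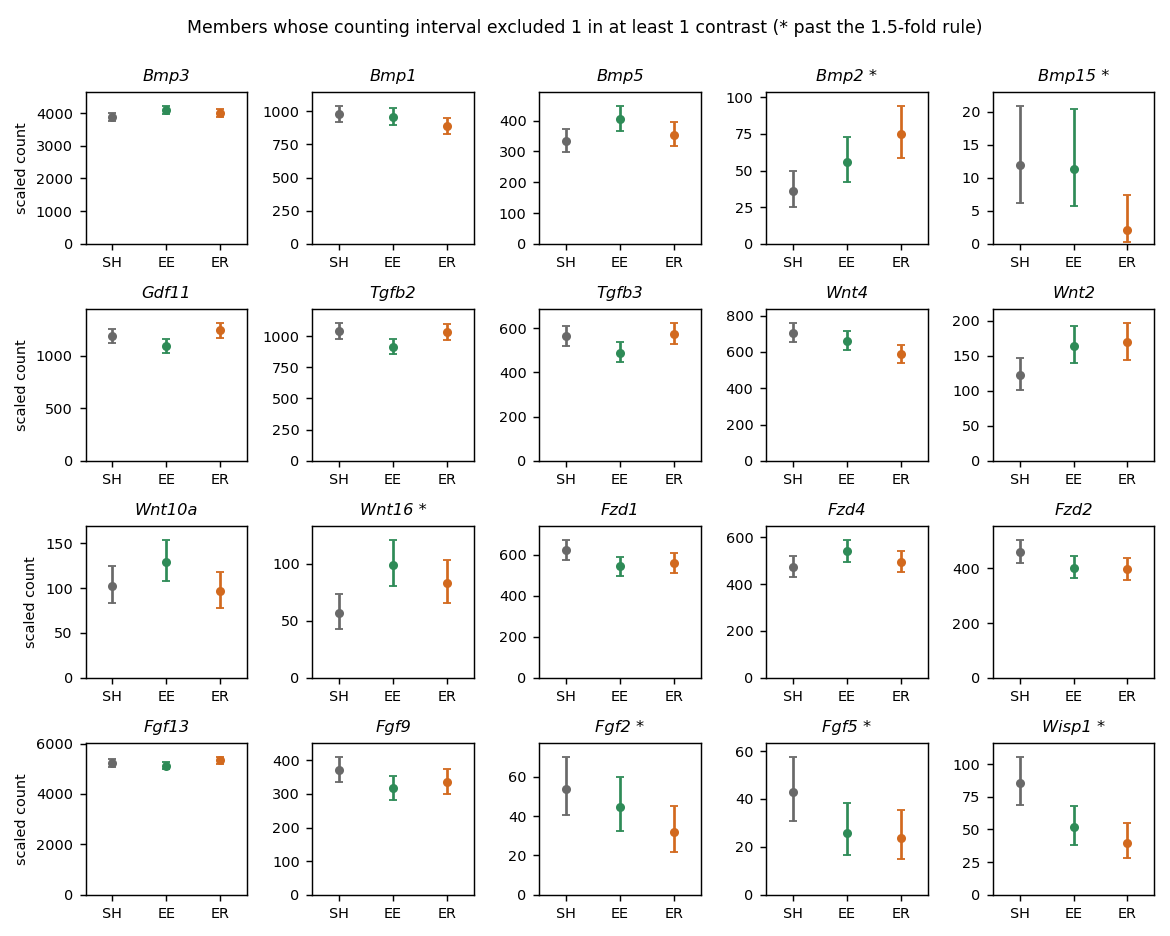
Scaled counts (vertical axes, each from 0 with its own scale) of the 20 genes whose ratio interval excluded 1 in at least 1 contrast, in the SH, EE and ER libraries. Points are the values of single pooled libraries, bars are exact 95% Poisson intervals of the reads, and an asterisk marks the 6 genes past the 1.5-fold rule; Bmp2 climbs from 35.9 in SH to 74.9 in ER, and Wisp1 descends from 85.6 to 40.

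EEvSH asks what enrichment changed. Of the 60 members, 2 were past the rule and higher in EE, Bmp2 and Wnt16, against 1.13% of all genes tested, and 1 was lower, Wisp1, against 0.882%. The interval excluded 1 for 12 members, 6 in each direction, which is 20% of them, beside 18.2% of all genes. All 12 were among the 36 members with a mean of at least 50. At that level the interval lay above 1 for 1433 and below it for 1395 of 13386 genes. The median log2 ratio of the members was -0.05, beside 0.00 for all genes, and 25 of the 60 ratios were above 1.

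ERvSH asks what enrichment followed by its loss changed. Of the 60 members, 1 was past the rule and higher in ER, Bmp2, beside 0.745% of all genes, and 4 were lower, Bmp15, Fgf2, Fgf5 and Wisp1, against 0.745%. The 4 lower genes make 6.67% of the members, and 3 of them had a mean under 50. The share of members with a mean under 50 was also larger, 24 of 60 against 3389 of the 16775 genes. Among genes with a mean of at least 50, 1 of 36 members was past the rule in each direction, beside 44 higher and 51 lower of 13386. The interval excluded 1 for 10 members, 16.7%, beside 15.5% of all genes. The median log2 ratio was -0.02, and 27 of 60 ratios were above 1.

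ERvEE asks what the loss changed against continued enrichment. No member was past the rule and higher in ER, beside 0.715% of all genes, and 1 was lower, Bmp15, against 0.846%. The interval excluded 1 for 7 members, 11.7%, beside 13% of all genes. The median log2 ratio was -0.03, beside 0.00 for all genes, and 28 of 60 ratios were above 1. The 3 contrasts share libraries, so a high or low value in 1 library enters 2 of them.

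**Figure D2:**
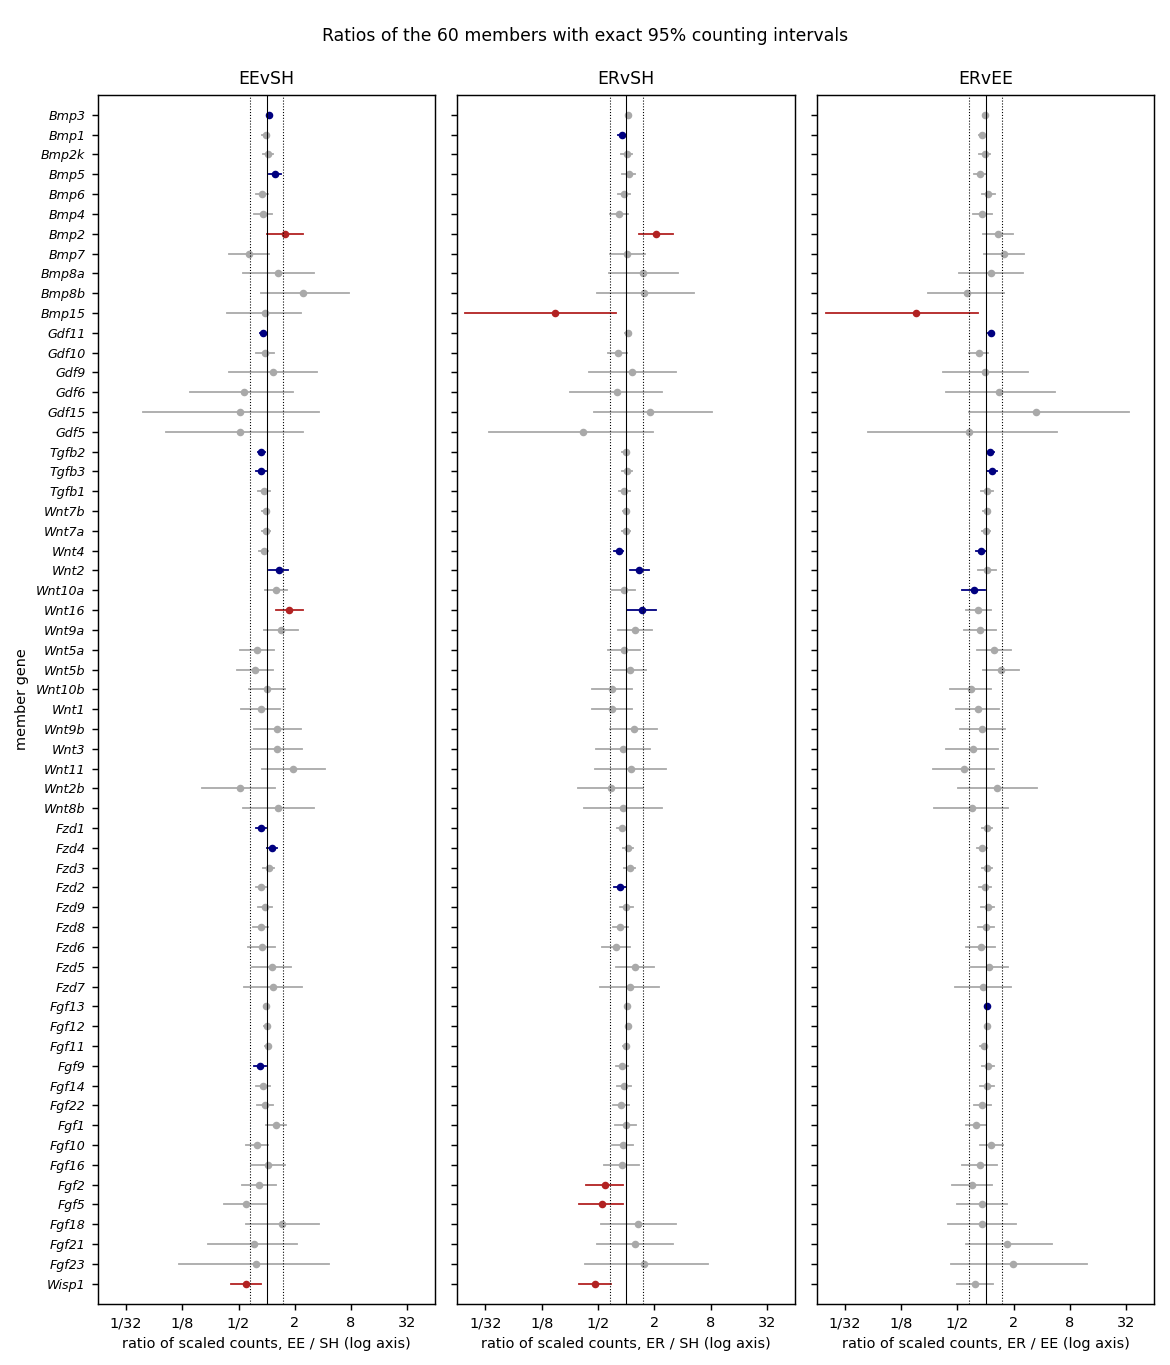
Ratio of scaled counts (horizontal, log axis) of each of the 60 genes in EEvSH, ERvSH and ERvEE, with its exact 95% counting interval as a line. Red marks genes past the size rule, blue other genes whose interval excluded 1 and grey the rest; dotted lines stand at 1.5-fold either way, and the widest lines belong to genes with the fewest reads, such as Gdf15 and Gdf5.

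Bmp2, a BMP ligand known from bone and from neural and glial differentiation, had 36 reads in SH, 54 in EE and 73 in ER, or 35.9, 55.8 and 74.9 scaled counts. The SH library was lowest and the ER library highest. The ratio was 1.56 in EEvSH (interval 1.003 to 2.44), only just inside the rule, and 2.09 in ERvSH (1.38 to 3.21). Between ER and EE it was 1.34 (0.931 to 1.94), so these reads do not separate the EE and ER libraries. Bmp4, the ligand closest to Bmp2 in sequence, had 174, 159 and 147 scaled counts and intervals that included 1 in all 3 contrasts (ERvSH 0.842, 0.67 to 1.06).

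Among the other BMP ligands, Bmp3, an atypical family member that opposes bone-forming BMPs, had 3866, 4095 and 4005 scaled counts. Its ratio in EEvSH was 1.06 (1.01 to 1.11), a small difference that is separable at this depth. Bmp5, of the subgroup of Bmp6 and Bmp7, had 335 in SH, 406 in EE and 355 in ER, and was highest in EE (EEvSH 1.21, 1.05 to 1.41). Bmp6 had 349, 310 and 330, with every interval including 1. Bmp7 had 45.8, 30 and 47.2, lowest in EE with intervals that included 1 (ERvEE 1.57, 0.968 to 2.60). Bmp8a and Bmp8b, a near-identical pair whose reads may be divided uncertainly, had 6 to 16 reads per library.

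Bmp15, known as an oocyte growth factor, had 12 reads in SH, 11 in EE and 2 in ER. The ER library stood below the others, with a ratio of 0.172 in ERvSH (0.0187 to 0.771) and 0.18 in ERvEE (0.0194 to 0.827). A value of 2 reads leaves each ratio uncertain over more than an order of magnitude. Gdf9, its oocyte partner, had 8 reads in SH, 9 in EE and 9 in ER. The protease gene Bmp1 had 979, 958 and 886 scaled counts and was 0.905 in ERvSH (0.825 to 0.993), and the kinase gene Bmp2k had 464, 481 and 469 with every interval including 1.

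The 3 TGF-beta ligand genes were all lowest in EE, beside 32.6% of all genes tested. Of the 24 members with a mean of 200 or more, these 3 included, 13 were lowest in EE. Tgfb2 had 1042 in SH, 913 in EE and 1029 in ER. Tgfb3 had 564, 490 and 575. Tgfb1, the form made largely by microglia and vessels in brain, had 396, 369 and 381. For Tgfb2 the EE library was below both others (EEvSH 0.876, 0.8 to 0.959; ERvEE 1.13, 1.03 to 1.24), and the same held for Tgfb3 (0.869, 0.768 to 0.984, and 1.17, 1.04 to 1.33). For Tgfb1 the intervals included 1 (EEvSH 0.931, 0.805 to 1.08). Between ER and SH no interval of the 3 genes excluded 1. None of these differences reached 1.5-fold.

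Gdf11, a ligand close to myostatin that acts through activin-type receptors, had 1190, 1091 and 1243 scaled counts. It was likewise lowest in EE (EEvSH 0.917, 0.843 to 0.997; ERvEE 1.14, 1.05 to 1.24). Gdf10, related to Bmp3, had 170, 163 and 139, and Gdf9 was given above. Gdf5, Gdf6 and Gdf15 had 2 to 9 reads per library and ratio intervals too wide to order the libraries. The median log2 ratio of the Gdf family in EEvSH was -0.41, and 4 of its 6 genes had a mean under 50.

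The Wnt genes with the most reads were Wnt7b, Wnt7a and Wnt4. Wnt7b had 1186, 1158 and 1185 and Wnt7a 894, 878 and 885; both are known for signaling to brain endothelium, and every interval included 1. In ERvSH the ratio of Wnt7b was 0.999 (0.92 to 1.08). Wnt4 had 707 in SH, 660 in EE and 588 in ER. It was lowest in ER, with a ratio of 0.831 in ERvSH (0.743 to 0.929) and 0.891 in ERvEE (0.795 to 0.999).

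Wnt16 and Wnt2 were lowest in SH. Wnt16, a Wnt known best from bone, had 57 reads in SH, 96 in EE and 81 in ER, or 56.8, 99.3 and 83.1 scaled counts. Its ratio was 1.75 in EEvSH (1.25 to 2.47), past the rule, and 1.46 in ERvSH (1.03 to 2.09), just under 1.5. In ERvEE it was 0.837 (0.615 to 1.14). Wnt2, a canonical Wnt that is also made by vascular cells, had 122, 164 and 169 scaled counts. The EE and ER libraries were both above SH, by 1.34 in EEvSH (1.05 to 1.71) and 1.38 in ERvSH (1.09 to 1.76), and ER and EE were close (1.03, 0.823 to 1.29). Wnt10a was highest in EE at 129, beside 103 in SH and 96.4 in ER, and its interval excluded 1 in ERvEE (0.746, 0.565 to 0.983).

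The other 10 Wnt genes had means from 11.9 (Wnt8b) to 52.4 (Wnt9a), and all their intervals included 1. Over the 16 Wnt genes, 8 were highest in EE, 6 in SH and 2 in ER, beside 34.4%, 34.1% and 31.5% of all genes tested. The median log2 ratio was 0.18 in EEvSH and -0.18 in ERvEE, and 8 of the 16 had a mean under 50. In RefSeq gene order, pairs of Wnt genes lie side by side, Wnt10b with Wnt1 on chromosome 7 and Wnt9b with Wnt3 on chromosome 10. Wnt10b had 43.8, 44.5 and 30.8 and Wnt1 41.8, 36.2 and 29.7, each lowest in ER. Wnt9b had 23.9, 31 and 28.7 and Wnt3 20.9, 26.9 and 19.5, each highest in EE. These orders are within counting error for all 4 genes. Bmp3 and Fgf5 are separated by 1 coding gene on chromosome 14, and only Fgf5 was past the rule.

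The Frizzled receptors, which bind Wnts on the cell surface, differed little, and none of the 9 was past the rule in any contrast. Fzd1 had 621 in SH, 542 in EE and 557 in ER (EEvSH 0.872, 0.775 to 0.981). Fzd4, the receptor of retinal and brain vessels, went the other way with 473, 541 and 495 (EEvSH 1.14, 1.01 to 1.30). Fzd2 had 461, 402 and 397 (ERvSH 0.861, 0.75 to 0.988). Fzd3, a planar polarity receptor of axons, had 432, 456 and 471, Fzd9 286, 275 and 288, and Fzd8 262, 225 and 227, and no interval of these excluded 1. Fzd5, Fzd6 and Fzd7 had means from 18.3 to 71.9 and intervals that included 1.

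Wisp1 encodes a secreted matrix-associated protein of the CCN family, named for its induction by Wnt1. It had 86 reads in SH, 50 in EE and 39 in ER, or 85.6, 51.7 and 40 scaled counts. The SH library was highest and the ER library lowest. The ratio was 0.604 in EEvSH (0.417 to 0.865) and 0.467 in ERvSH (0.311 to 0.69), both past the rule, and 0.774 in ERvEE (0.496 to 1.20). Of the other CCN genes, Nov had 13371 in SH, 12330 in EE and 13989 in ER and was lowest in EE (EEvSH 0.922, 0.9 to 0.945). Wisp2 was higher in EE, with 19.9, 44.5 and 27.7 scaled counts and a ratio of 2.23 in EEvSH (1.28 to 4.01), the opposite direction to Wisp1 in that contrast. Wisp3 had 3 reads in SH, 8 in EE and 8 in ER, too few to order the libraries (EEvSH 2.77, 0.664 to 16.2).

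The intracellular FGF genes had similar counts in all libraries. Fgf13 had 5226, 5114 and 5334 scaled counts (ERvEE 1.04, lower end 1.00), Fgf12 2577, 2582 and 2682, Fgf11 1279, 1331 and 1269, and Fgf14 288, 266 and 273. Apart from Fgf13 in ERvEE, every interval of these 4 genes included 1. The 10 secreted FGF genes had a median log2 ratio of -0.25 in EEvSH and -0.13 in ERvSH, and 3 of 10 ratios were above 1 in each. Of these 10 genes, 6 had a mean under 50. The interval lay below 1 for 1 of them in EEvSH and for 2 in ERvSH, and above 1 for 0. All genes tested had medians of 0.00.

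Fgf2, basic FGF, made in brain largely by astrocytes, had 54 reads in SH, 43 in EE and 31 in ER, or 53.8, 44.5 and 31.8 scaled counts. SH was highest and ER lowest, and the ratio in ERvSH was 0.591 (0.367 to 0.936). Fgf5, known for ending the growth phase of hair, had 42.8, 25.8 and 23.6, or 43 reads in SH, 25 in EE and 23 in ER. Its ratio was 0.551 in ERvSH (0.317 to 0.935), past the rule. In EEvSH it was 0.604 (0.353 to 1.01), the same ratio as that of Wisp1 but from fewer reads, so it was not past the rule. Fgf9, a neuronal and glial ligand, had 371, 316 and 335 (EEvSH 0.852, 0.73 to 0.993). Fgf22, a presynaptic organizer, had 219, 211 and 195. Fgf1, Fgf10, Fgf16, Fgf18, Fgf21 and Fgf23 had intervals that included 1 in every contrast, among them Fgf1, acidic FGF, highest in EE at 155 beside 124 and 122.

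**Figure D3:**
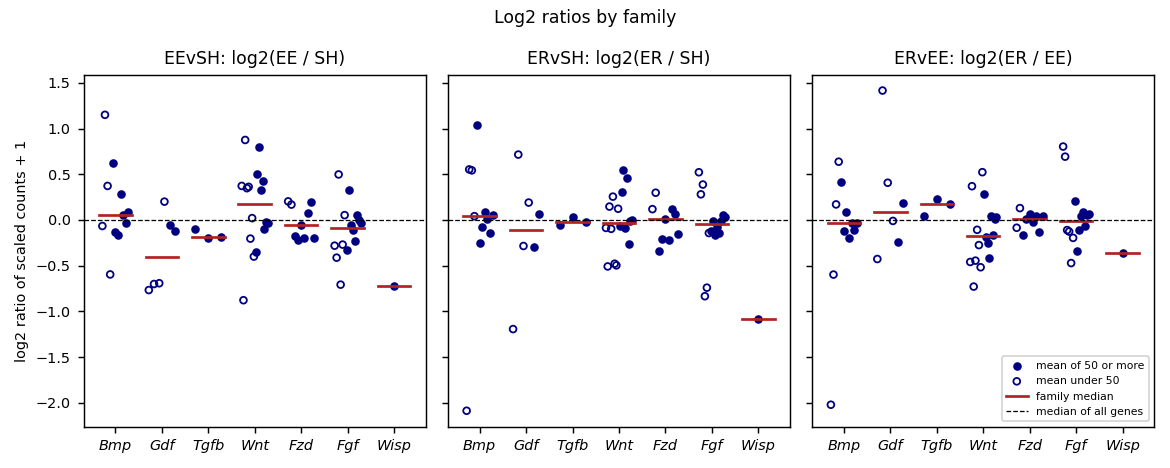
Log2 ratios of scaled counts plus 1 (vertical) by gene family (horizontal) in EEvSH, ERvSH and ERvEE, filled for genes with a mean of at least 50 and open below it. Red bars are family medians and the dashed line is the median of all 16775 genes tested; the 3 Tgfb genes lie below 0 in EEvSH and above it in ERvEE, and the points farthest from 0 are mostly open.

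The receptors, antagonists and target genes around these ligands were described with 11 lists of 120 measured genes. Of these, Wisp2 in EEvSH was the only gene past the rule in any contrast, and none with a mean of at least 50 was past it. Of 16 TGF-beta family receptors, 0 were past the rule in any contrast. Bmpr2, the type II BMP receptor, had 1951, 2107 and 2046 (EEvSH 1.08, 1.01 to 1.15), and Tgfbr2 229, 239 and 240 with intervals that included 1. Among 15 BMP antagonists the interval excluded 1 in EEvSH for 3, beside 18.2% of all genes tested. Nog, encoding noggin, had 436, 359 and 392 (0.823, 0.712 to 0.949). Chrd, encoding chordin, had 1634, 1376 and 1518 (0.842, 0.783 to 0.906). Both antagonist genes were thus lowest in EE, whereas Grem1 had 297, 318 and 320 with intervals that included 1. The third was Fstl1 at 1.11 (1.02 to 1.21).

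Among target genes of BMP signaling, Id1 had 194, 201 and 179 scaled counts, and Id3 309, 310 and 310. Id4 had 743, 824 and 760 and was higher in EE than in SH (1.11, 1.003 to 1.23). In ERvSH, where Bmp2 was 2.09-fold higher, Id3 was at 1.00 (0.854 to 1.18) and Id1 at 0.924 (0.749 to 1.14). Smad7, an inhibitory SMAD that these pathways induce, had 864, 784 and 763 (ERvSH 0.883, 0.799 to 0.975). Smad1, which carries BMP signals, was lowest in EE with 740, 662 and 753 (EEvSH 0.894, 0.803 to 0.995). The 12 genes of the SMAD and Id list had median log2 ratios of 0.01, 0.02 and 0.01 in EEvSH, ERvSH and ERvEE.

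On the Wnt side, Axin2, the usual readout of canonical signaling, had 863, 859 and 912 scaled counts and intervals that included 1 (ERvSH 1.06, 0.961 to 1.16). Of the other 8 Wnt target genes, Ccnd1, encoding cyclin D1, had 1251, 1475 and 1297 and was highest in EE (EEvSH 1.18, 1.09 to 1.27; ERvEE 0.879, 0.814 to 0.949), and no interval of the remaining 7 excluded 1. Lrp6 had 798, 830 and 829, likewise. Its relative Lrp5 had 551, 447 and 466 and was lower in EE and in ER than in SH (EEvSH 0.811, 0.713 to 0.921; ERvSH 0.846, 0.745 to 0.959). Wls, the carrier that brings Wnts to the cell surface, had 1071, 1296 and 1104 and was highest in EE (EEvSH 1.21, 1.11 to 1.31; ERvEE 0.852, 0.785 to 0.925). Of 12 Wnt antagonists, Wif1 and Kremen1 were higher in EE and in ER than in SH (in EEvSH 1.31, 1.06 to 1.62, and 1.28, 1.14 to 1.44), and Dkk3 and Apcdd1 were lower in EEvSH (0.948, 0.923 to 0.973, and 0.876, 0.794 to 0.966). In the FGF lists, Fgfr1 had 1568, 1677 and 1489 and was lower in ER than in EE (0.888, 0.827 to 0.954), and Spry4, a Sprouty feedback inhibitor, had 453, 417 and 466 with intervals that included 1. In the same list of 12 feedback and target genes the interval excluded 1 in EEvSH for 3, beside 18.2% of all genes tested. All 3 were higher in EE: Spry2 (1.13, 1.05 to 1.22), the phosphatase gene Dusp6 (1.12, 1.01 to 1.25) and the ETS factor gene Etv1 (1.12, 1.08 to 1.16). Dusp6 (1.13, 1.02 to 1.26) and Etv1 (1.05, 1.01 to 1.08) were also higher in ERvSH. In ERvEE, Etv1 (0.936, 0.904 to 0.968) and Etv5 (0.933, 0.874 to 0.996) were lower, and 0 intervals of that list lay above 1. Over all 16775 genes tested, 1086 intervals lay above 1 and 1091 below it in ERvEE. Of 10 FGF receptor and co-receptor genes, Fgfr3 (0.915, 0.867 to 0.966), Fgfrl1 (0.842, 0.731 to 0.969) and Flrt3 (0.912, 0.839 to 0.991) were lower in ERvSH. There 0 intervals of that list lay above 1, beside 1273 above and 1323 below among all 16775 genes tested. In EEvSH the same list had 2 above, Flrt1 (1.12, 1.02 to 1.24) and Flrt2 (1.15, 1.02 to 1.30), and 1 below, Flrt3 (0.87, 0.799 to 0.946).

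**Figure D4:**
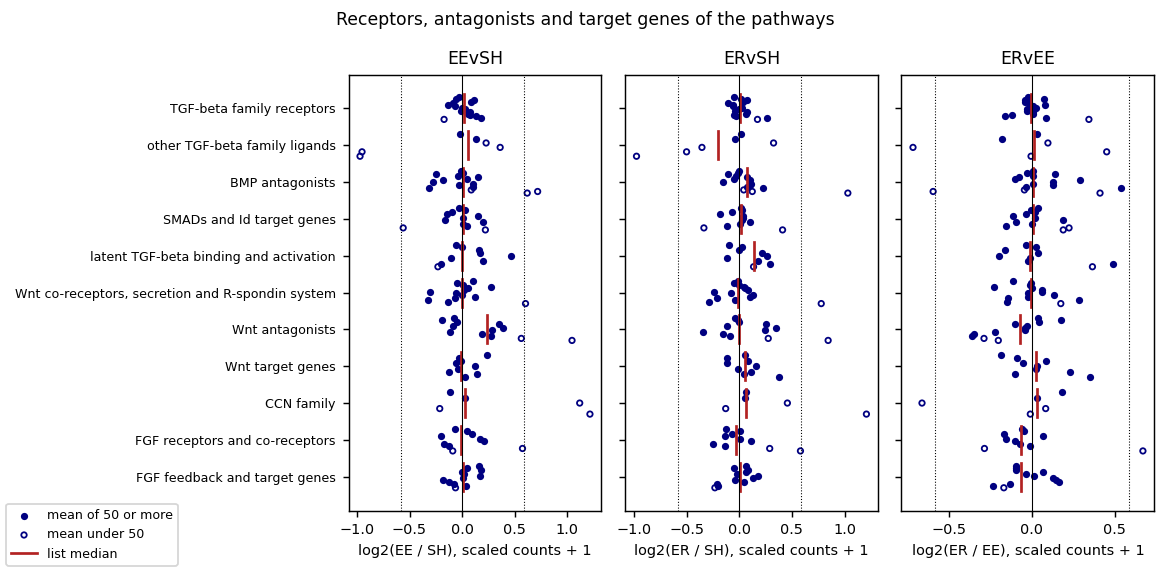
Log2 ratios of scaled counts plus 1 (horizontal) of the genes of 11 pathway lists (rows) in EEvSH, ERvSH and ERvEE, filled for a mean of at least 50 and open below it. Red bars are list medians and dotted lines stand at 1.5-fold either way; no filled point is past the rule, and the list medians lie between -0.20 and 0.24.

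Markers of neighboring tissue and of other cell types also differed between these libraries. The 10 markers of the adjoining striatum and central amygdala summed to 13410 in SH, 15392 in EE and 13180 in ER. Of these 10, 8 were highest in EE, beside 34.4% of all genes tested. In EEvSH their interval lay above 1 for 7 and below it for 1. Most of the rise in that sum was in Penk (4972, 6650 and 5046), whereas Ppp1r1b was lowest in EE (3681, 3194 and 3367). All 4 oligodendrocyte markers were lowest in SH and highest in EE (sums of 98431, 111192 and 106759). The 3 blood markers were lowest in SH too (1576, 2257 and 2057). Of the hypothalamus and medial amygdala list, 4 of 8 genes were measured and 3 of these were lowest in SH (sums of 571, 756 and 671), among them Slc17a6 with 442, 616 and 533 (EEvSH 1.39, 1.23 to 1.58) and Sim1 with 1 read in SH, 10 in EE and 3 in ER. Bmp2, Wnt16, Wnt2, Bmp5 and Wls were lowest in SH as well, and the part of these markers in those results was not tested. The choroid plexus marker Ttr had 80 reads in SH, 4 in EE and 0 in ER, and the 4 choroid plexus markers measured, of 7 listed, summed to 158, 78.6 and 84.1. The fall in that sum was in Ttr: Kcne2 had 53.8, 42.4 and 61.5 scaled counts, Kl 14.9, 22.7 and 18.5, and Aqp1 9.96, 9.31 and 4.1, and every interval of these 3 genes included 1. Wisp1, Fgf2 and Fgf5 were also highest in SH, and the part of Ttr-expressing tissue was not tested. The 10 meningeal and fibroblast markers summed to 1544, 1450 and 1512 and were highest in SH for 3, in EE for 5 and in ER for 2, and the 5 astrocyte markers summed to 45565, 46284 and 45028.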

How the data were processed

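Per the labels, RNA of BLA punches from 10 rats was pooled for each library, poly(A) RNA was selected, and stranded libraries were made. The authors aligned reads with HISAT2 and scaled them with DESeq2. Tool versions, genome build and counting settings: not given in the sources used here. The deposited values are a normalized signal, each gene's reads after division by the DESeq2 size factor. Within each library they were whole multiples of 1 read for 100% of values (tolerance 0.001), so reads were recovered by division. RNA without a poly(A) tail is mostly absent from such libraries, and pooled rats give no measure of their spread.

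Ratios of scaled counts and Clopper-Pearson 95% intervals were computed for all 16775 protein-coding genes with a mean above 1. The reads carried no molecular identifiers, so the intervals cover counting error only. Log2 ratios carry a pseudocount of 1, which draws low genes toward 0. The genes named are those past the rule, those with a mean of at least 50 and an interval excluding 1, the 3 highest of each family, Wisp1, Bmp1, Bmp2k, and 10 pathway genes; other genes named were chosen after their values were seen. The members and lists were chosen with earlier results of these data known. Calculations were tested on simulated data. Ratios were computed in Python 3.11.15 (numpy 2.4.6, pandas 2.3.3 and scipy 1.17.1), scaling factors in R 4.3.3 (edgeR 4.0.16) and plots with matplotlib 3.10.9. Alternatives were other scalings, pseudocounts, level filters and size rules. Promoter sequences and gene order came from RefSeq (GRCr8).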

Additional observations from a re-analysis of the deposited data

Results flagged for a closer look

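Fzd10, a Frizzled receptor gene, is outside the 60 genes because the deposited table types it as a pseudogene, yet it had reads in every library: 383 scaled counts in SH, 340 in EE and 349 in ER, far above what 3 reads give. RefSeq (GRCr8) lists a gene of that symbol on chromosome 12 as protein-coding. Its ratios were 0.887 in EEvSH (interval 0.763 to 1.03), 0.91 in ERvSH (0.784 to 1.06) and 1.03 in ERvEE (0.879 to 1.20), all including 1.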

How the results depend on the processing

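Scaling by library totals, edgeR TMM or upper quartile left the counts of members past the rule as given in all 3 contrasts. Pseudocounts of 0.5 and 5 enter only the log2 ratios, so they could not change these counts. Dropping the filter on level added only Gdf7, with 1 read in SH, 1 in EE and 0 in ER, too few to meet the rule. None of the 6 genes past the rule reversed, but these settings could not reverse a 1.5-fold difference. The other scalings multiplied ratios by 0.996 to 1.001, and pseudocounts and level filters leave a direction as it is. The direction of other genes was not tabulated. The size rule itself mattered more. Under a 2-fold rule no member was higher (0) or lower (0) in EEvSH, beside 99 and 79 of all 16775 genes. In ERvSH 1 was higher, Bmp2, and 2 were lower, Wisp1 and Bmp15, beside 63 and 69. With 1.5-fold and no interval, 4 were higher and 7 lower in EEvSH, beside 770 and 685 of all 16775 genes. In ERvSH 4 were higher and 5 lower, beside 675 and 666. In ERvEE 4 were higher and 4 lower, beside 621 and 751. Requiring a mean of at least 50 left 1 lower in ERvSH and 0 lower in ERvEE, beside 51 and 52 of 13386 genes. A mean of at least 10 also left 0 lower in ERvEE, beside 124 of 15202. Leaving out the Frizzled genes, Bmp1, Bmp2k and Wisp1 gave 48 genes, with Fgf11 to Fgf14 kept. Of these, 0 were lower in EEvSH, beside 148 of all 16775 genes. That count was fixed in advance, since Wisp1 was the only member lower in EEvSH. No paired analysis was possible because each condition has 1 library, and no library could be left out for the same reason. Depth limits genes with a mean under 50 most: at the 2 reads of Bmp15 in ER the ratio could not be placed within an order of magnitude.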
